A study of Homo sapiens with 6 samples.

Results

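Long non-coding RNAs known from pluripotent cells were examined after SOX2 reduction in PA1, a human ovarian teratocarcinoma cell line in long use that carries the pluripotency factor SOX2. The set was chosen by name and holds 4 genes of the 59653 in the count table: MIR302CHG, the host gene of the microRNA cluster of miR-302 and miR-367, and the long intergenic or intronic RNAs ESRG, LINC-ROR and LINC00678. Of the 4, MIR302CHG and ESRG passed the filter on low counts and were tested. The control group was transfected with a negative control small interfering RNA (siRNA) and the other group with siRNA to SOX2, both in PA1 cells of genotype wildtype. A pair of SOX2 siRNAs is named in the labels, which do not say whether they were pooled. Both groups spent 24 h in adherent culture and a further 72 h on poly-HEMA, a coating that keeps cells from attaching, before mRNA sequencing. Each group had 3 libraries, of 25152313 to 32753184 counts. Nothing states that the libraries of a group came from separate cultures, so p-values measure only the spread between these samples. SOX2 itself had 8093, 6647 and 7396 counts in control and 1564, 1776 and 1513 in SOX2 siRNA libraries, with means of 255 ± 10.1 and 52.5 ± 2.21 CPM (SD, n = 3), or 20.5% of control, where CPM are counts scaled to a common library total. The libraries correlated more closely within a group than between groups (r of 0.990 to 0.992 against 0.982 to 0.985 across genes). Of 9 pluripotency markers used to check the line, POU5F1, SOX2, LIN28A, SALL4 and DNMT3B were at 99.7 to 706 CPM in control libraries, DPPA4 and L1TD1 at 3.05 and 1.79 CPM, and TDGF1 and UTF1 at 0.0649 and 0.0785 CPM, below the 0.0916 to 0.119 CPM that 3 counts are worth.

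In pluripotent cells the cluster of miR-302 and miR-367 is among the most abundant sources of microRNA. Its promoter is known to be bound by POU5F1, SOX2 and NANOG, and the microRNAs cut from its primary transcript repress cell-cycle inhibitors and regulators of Nodal and BMP signalling. ESRG and LINC-ROR are transcripts of human pluripotent cells linked to HERVH retroviral elements, whose long terminal repeats act there as promoters. LINC-ROR was first described for its part in reprogramming and is reported to bind miR-145, a microRNA that targets POU5F1, SOX2 and KLF4.

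MIR302CHG lies on the minus strand of chromosome 4 at chr4:112646720-112650051 (GRCh38.p14, RefSeq), inside the protein-coding gene LARP7 on the plus strand. The 5 hairpins of the cluster follow one another in the order MIR302B, MIR302C, MIR302A, MIR302D and MIR367, from chr4:112648485-112648557 for the first to chr4:112647874-112647941 for the last. All 5 lie in intron 8 of a coding transcript of LARP7 (introns counted along the chromosome) and none overlaps a LARP7 exon. GENCODE 29 lists the host under a clone name with 3 transcripts. An exon of 1 of them covers 45 bases of MIR302B, and the other 4 hairpins are intronic in all 3. The host's exons cover 743 bases, of which 302 also lie under LARP7 exons on the other strand.

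**Figure D1:**
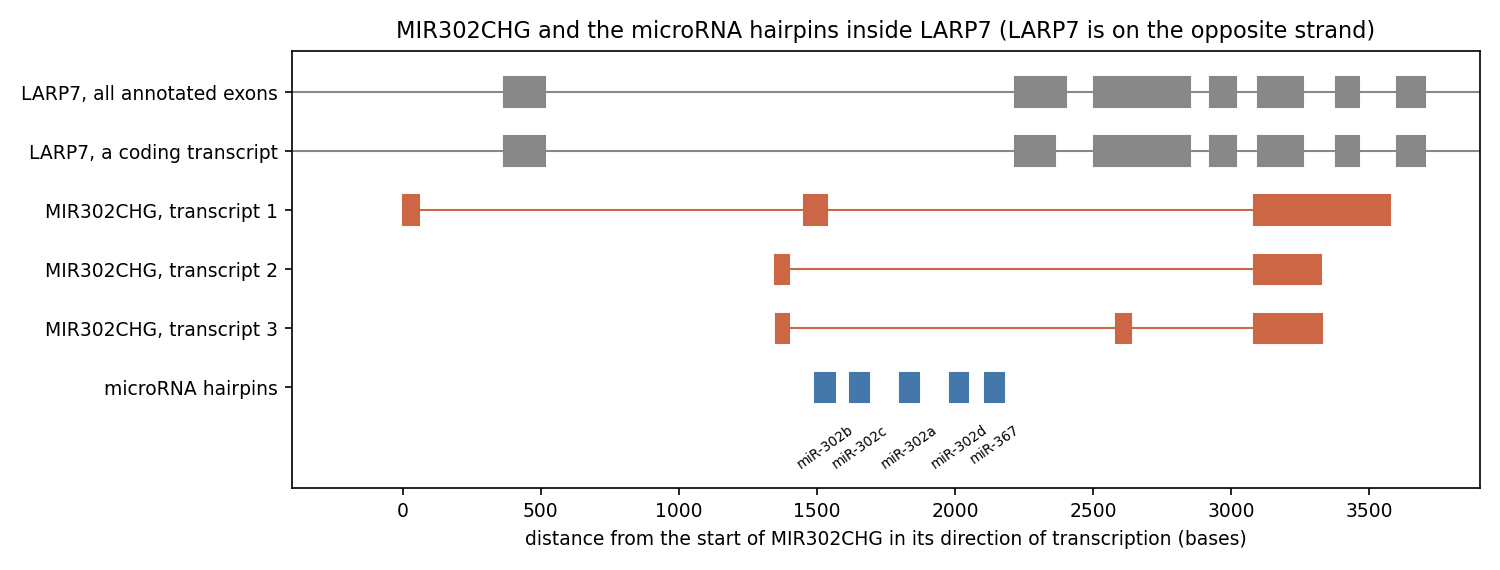
Map of the MIR302CHG locus, with distance in bases from the start of the gene on the x axis and boxes for exons and hairpins. The 5 hairpins start 1494 to 2110 bases from the start, where 1 host transcript has an exon over 45 bases of MIR302B, and the last host exon runs under LARP7 exons of the opposite strand.

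The mature products show why the host is of interest: the 4 miR-302 products of the 3′ arm share bases 2 to 8, the seed that pairs with target RNAs, while miR-367 has another. They are printed 5′ to 3′ from RefSeq (GRCh38.p14), with the seed in capitals.
hsa-miR-302a-3p: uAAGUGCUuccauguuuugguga
hsa-miR-302b-3p: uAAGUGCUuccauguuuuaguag
hsa-miR-302c-3p: uAAGUGCUuccauguuucagugg
hsa-miR-302d-3p: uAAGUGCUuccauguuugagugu
hsa-miR-367-3p: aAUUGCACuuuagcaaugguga
hsa-miR-372-3p: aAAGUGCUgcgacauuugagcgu
hsa-miR-92a-3p: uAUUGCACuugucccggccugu
The last pair is shown because it comes from other loci with the same seeds. In all, 12 of the 2370 mature microRNA names in the RefSeq table carry AAGUGCU at these positions, among them miR-372, miR-373 and miR-520 products of chromosome 19, and 6 carry AUUGCAC, among them miR-92a-3p, of the cluster hosted by MIR17HG. The libraries were made with an mRNA kit and did not measure mature microRNAs. The rows for MIR302A, MIR302B, MIR302C, MIR302D and MIR367 held 0 counts in each library, which allows up to 3 counts, or 0.0916 to 0.119 CPM. Statements on the cluster therefore concern its host transcript.

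MIR302CHG fell to 68.2% of its control level after SOX2 siRNA. It had 54.3, 49.97 and 50.2 CPM in control replicates 1 to 3, from 1792, 1252 and 1450 counts. The SOX2 siRNA replicates 1 to 3 had 33.9, 36.1 and 35.4 CPM, from 1022, 1168 and 1058 counts. The groups did not overlap, and the gap between them was larger than the range inside either. In bulk RNA, fewer cells with the transcript and less of it per cell cannot be told apart. The means were 51.5 ± 2.44 and 35.1 ± 1.16 CPM (SD, n = 3), and the log2 fold change (SOX2 siRNA over control) was -0.55 (SE 0.0501, 95% interval -0.66 to -0.45). The p-value of edgeR's quasi-likelihood test, adjusted over all tested genes by the method of Benjamini and Hochberg, was 1.96e-07. Exact permutation of the library labels, two-sided, gave p = 0.1, the smallest possible with 3 against 3. Of 17592 genes tested, 28.2% were called by the same edgeR test at an adjusted p under 0.05, 13.4% as lower and 14.8% as higher, and 41.8% had groups whose libraries were fully apart, without overlap. Among 2204 tested long non-coding genes matched to GENCODE 29, 13.8% were called, 8.89% as lower and 4.95% as higher. Of these, 108 called genes had a more negative log2 fold change than MIR302CHG, and 10 had a smaller p.

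LARP7, which encodes a protein that binds and stabilises the 7SK small nuclear RNA, moved the other way. Its control libraries had 129.6, 136 and 131 CPM and its SOX2 siRNA libraries 170.2, 183 and 193 CPM. Every SOX2 siRNA library lay above every control library, and the log2 fold change came to 0.46 (SE 0.0442; edgeR adjusted p = 4.63e-07). Counts of MIR302CHG as a percent of LARP7 counts, a ratio free of scaling between libraries, were 41.9, 36.6 and 38.1 in control and 19.9, 19.7 and 18.4 in SOX2 siRNA libraries. The mean ratio went from 38.9% ± 2.71 to 19.3% ± 0.822 (SD, n = 3; exact permutation p = 0.1). Host and LARP7 exons overlap on opposite strands and the use of strand in counting is not given in the sources used here, so reads of the shared bases cannot be assigned with certainty; the part of this overlap in the values was not tested. The next coding genes on either side were ZGRF1, 9481 bases away, and ANK2, 168058 bases away. ZGRF1 was at a log2 fold change of -0.017 (SE 0.0395; edgeR adjusted p = 0.801), and ANK2, encoding ankyrin-B, rose with 0.59 (SE 0.0371; edgeR adjusted p = 1.86e-09).

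**Figure D2:**
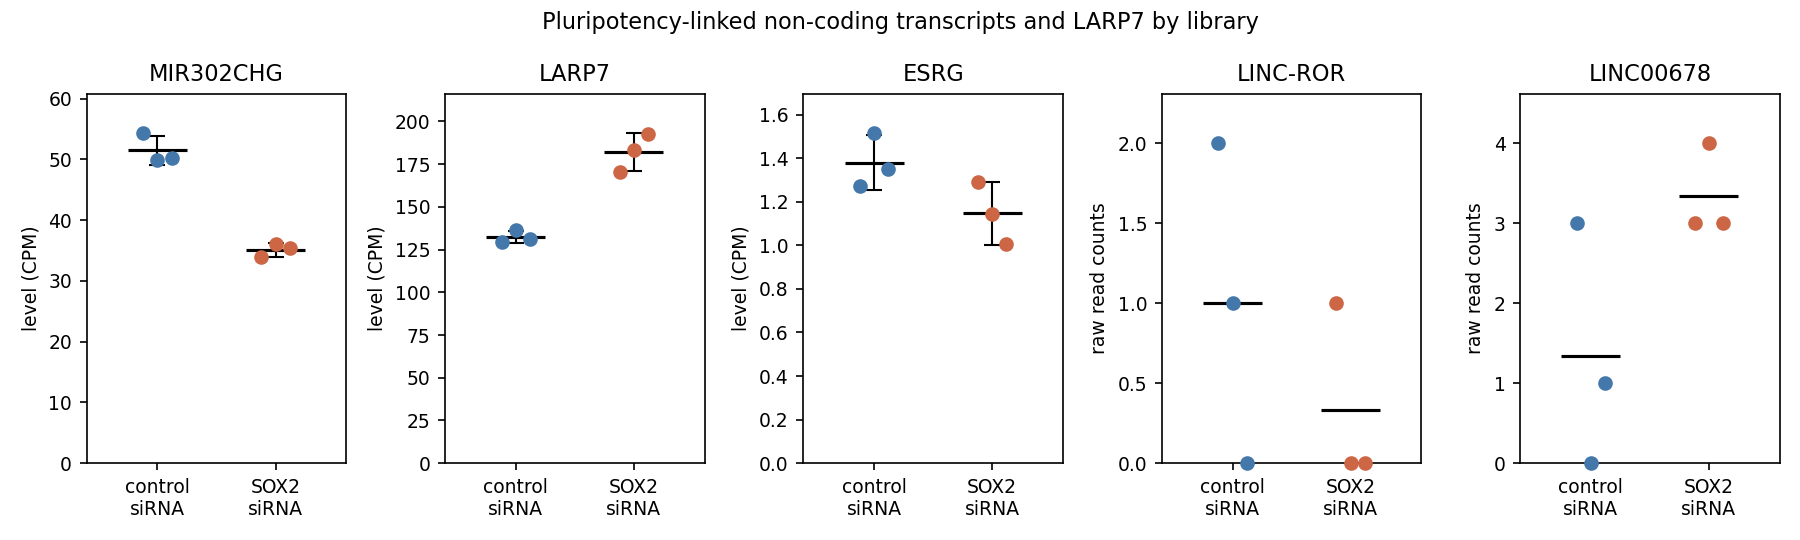
Level in CPM (MIR302CHG, LARP7, ESRG) or raw counts (LINC-ROR, LINC00678) in each of the 3 control and 3 SOX2 siRNA libraries; bars are means and, for CPM, whiskers are SDs. MIR302CHG sits at 49.97 to 54.3 CPM in control and 33.9 to 36.1 CPM in SOX2 siRNA libraries, LARP7 moves up, ESRG overlaps, and the other genes do not exceed 4 counts.

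The RefSeq table gives MIR302CHG a start at each of 2 positions, and the 300 bases round each were searched on both strands for the octamer ATGCAAAT, bound by POU factors, and for the SOX cores ACAATG and ACAAAG. The window of the upstream start, chr4:112650002-112650301, held the octamer 202 bases before the start and ACAAAG 140 bases before it. The octamer window is printed because it holds the rarer of these motifs, with the octamer in capitals (chr4:112650235-112650264, minus strand).
MIR302CHG upstream start: tattattctacATGCAAATtgttactgcta
The octamer occurred in 1.77% of the 35116 promoters of this length in the table, ACAATG in 10.8% and ACAAAG in 16.1%. The window of the downstream start, chr4:112648654-112648953, held none of the 3. A match describes letters and shows no binding.

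ESRG, an RNA of human embryonic stem cells reported to support their self-renewal, lies at chr3:54632124-54639857 on the minus strand, within the span of CACNA2D3 on the plus strand and clear of its exons. It was detected at a low level and did not pass the test. The control libraries held 42, 38 and 39 counts (1.27, 1.52 and 1.35 CPM), and the SOX2 siRNA libraries held 39, 37 and 30 counts (1.29, 1.14 and 1.004 CPM). The groups overlapped, since SOX2 siRNA replicate 1 lay above control replicate 1. The means were 1.38 ± 0.125 and 1.15 ± 0.144 CPM (SD, n = 3; exact permutation p = 0.2), for a log2 fold change of -0.26 (SE 0.213; edgeR adjusted p = 0.41). The 95% interval of -0.71 to 0.19 includes a fall as large as that of MIR302CHG, so at this depth ESRG can be said neither to have changed nor to have stayed the same. CACNA2D3 had at most 11 counts in a library and was not tested.

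LINC-ROR and LINC00678 were at the limit of detection in both groups and were not tested. LINC-ROR, at chr18:57054559-57072119 on the minus strand, lies 17952 bases from WDR7. Its counts were 2, 1 and 0 in the control and 1, 0 and 0 in the SOX2 siRNA libraries. No library reached the floor of 3 counts, so no fold is given. LINC00678, at chr11:27617626-27634627 on the minus strand, lies inside the span of BDNF-AS, the antisense RNA of the BDNF gene, and overlaps none of its exons. Its counts were 3, 0 and 1 in the control and 3, 4 and 3 in the SOX2 siRNA libraries, so a control library had as many counts as most SOX2 siRNA libraries. In CPM the groups were narrowly apart, with control replicate 1 at 0.0909 and SOX2 siRNA replicate 1 at 0.0994, each from 3 counts. Of all tested genes, 41.8% had groups apart. The sums were 4 and 10 counts, and a fit without a low-count filter gave no call for either gene (edgeR adjusted p = 0.638 for LINC-ROR and 0.524 for LINC00678). Near them, WDR7 fell slightly (log2 fold change -0.16, SE 0.0451; edgeR adjusted p = 0.0128), a call lost without control replicate 3 or without SOX2 siRNA replicate 2 (highest adjusted p 0.0799). LIN7C, 110853 bases from LINC00678, fell with -0.30 (SE 0.0559; edgeR adjusted p = 5.85e-04), and BDNF-AS had -0.13 (SE 0.167; edgeR adjusted p = 0.613). Of 11 genes that overlap or flank the 4 RNAs, 7 were tested, of which LARP7 and ANK2 rose, WDR7 and LIN7C fell and 3 did not pass, a share of 57.1% called against 28.2% of all tested genes.

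Levels were compared between genes per kilobase of GENCODE 29 exon sequence. In control libraries MIR302CHG stood at 69.3 ± 3.29 CPM per kilobase, ESRG at 0.439 ± 0.0398, LINC00678 at 0.0359 ± 0.0394 and LINC-ROR at 0.00861 ± 0.00792 (SD, n = 3). In SOX2 siRNA libraries the same genes stood at 47.3 ± 1.56, 0.365 ± 0.0458, 0.0926 ± 0.0118 and 0.00284 ± 0.00492. The order was the same in both groups, and the last pair did not differ beyond their spread in control libraries. Among the tested long non-coding genes, 5 had a higher mean level per kilobase over the 6 libraries than MIR302CHG. Gene models of the host and of its LARP7 overlap enter these levels, and the annotation behind the counts is not given in the sources used here.

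The genes whose log2 CPM followed MIR302CHG most closely over the 6 libraries were FRAT2, PLEKHG1 and GBX2 (Pearson r of 0.998, 0.998 and 0.997, n = 6 libraries). FRAT2 had 27.2 ± 1.26 CPM in control and 15.6 ± 0.698 in SOX2 siRNA libraries, PLEKHG1 31.1 ± 2.51 and 14.6 ± 0.592, and GBX2, a homeobox gene, 30.5 ± 1.17 and 17.5 ± 0.587 (SD, n = 3). Such values follow from the split between groups, and 715 genes had an r over 0.95 with MIR302CHG. For ESRG the closest were AC138207.4, AC138393.3 and TUT4 (r of 0.996, 0.991 and 0.991). None of the 3 was called (edgeR adjusted p = 0.209, 0.0681 and 0.0521). With ESRG, 139 genes had an r over 0.95. ESRG had only 30 to 42 counts in a library, so counting error enters its profile. The part of that error in these r values was not tested.

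Among microRNA host genes, MIR302CHG was highest per kilobase in both groups of the 23 that were tested and had a length. The table holds 69 genes named as microRNA hosts, of which 25 were tested. Of the 24 besides MIR302CHG, 4 rose, 2 fell and 18 did not pass the test, a share of 25% called against 28.2% of all genes, with a median log2 fold change of 0.055 against -0.00085. MIR503HG, whose exons share 19 bases with MIR424 on the same strand, rose from 6.10 ± 1.21 to 32.5 ± 4.82 CPM (n = 3, SD; log2 fold change 2.40, SE 0.177; edgeR adjusted p = 2.09e-04). MIR99AHG, which holds the cluster of let-7c, rose with 1.44 (SE 0.2; edgeR adjusted p = 3.01e-05). MIR1915HG and MIR17HG, the host of the miR-17-92 cluster, rose with 0.64 and 0.57 (SE 0.0568 and 0.0716; edgeR adjusted p = 1.51e-07 and 1.06e-05). MIR205HG fell from 1.32 ± 0.148 to 0.512 ± 0.14 CPM (n = 3, SD; log2 fold change -1.36, SE 0.27; edgeR adjusted p = 9.5e-04). MIR325HG was called with -0.53 (edgeR adjusted p = 0.041), and lost the call in 9 of 13 alternatives, the replicate block among them.

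**Figure D3:**
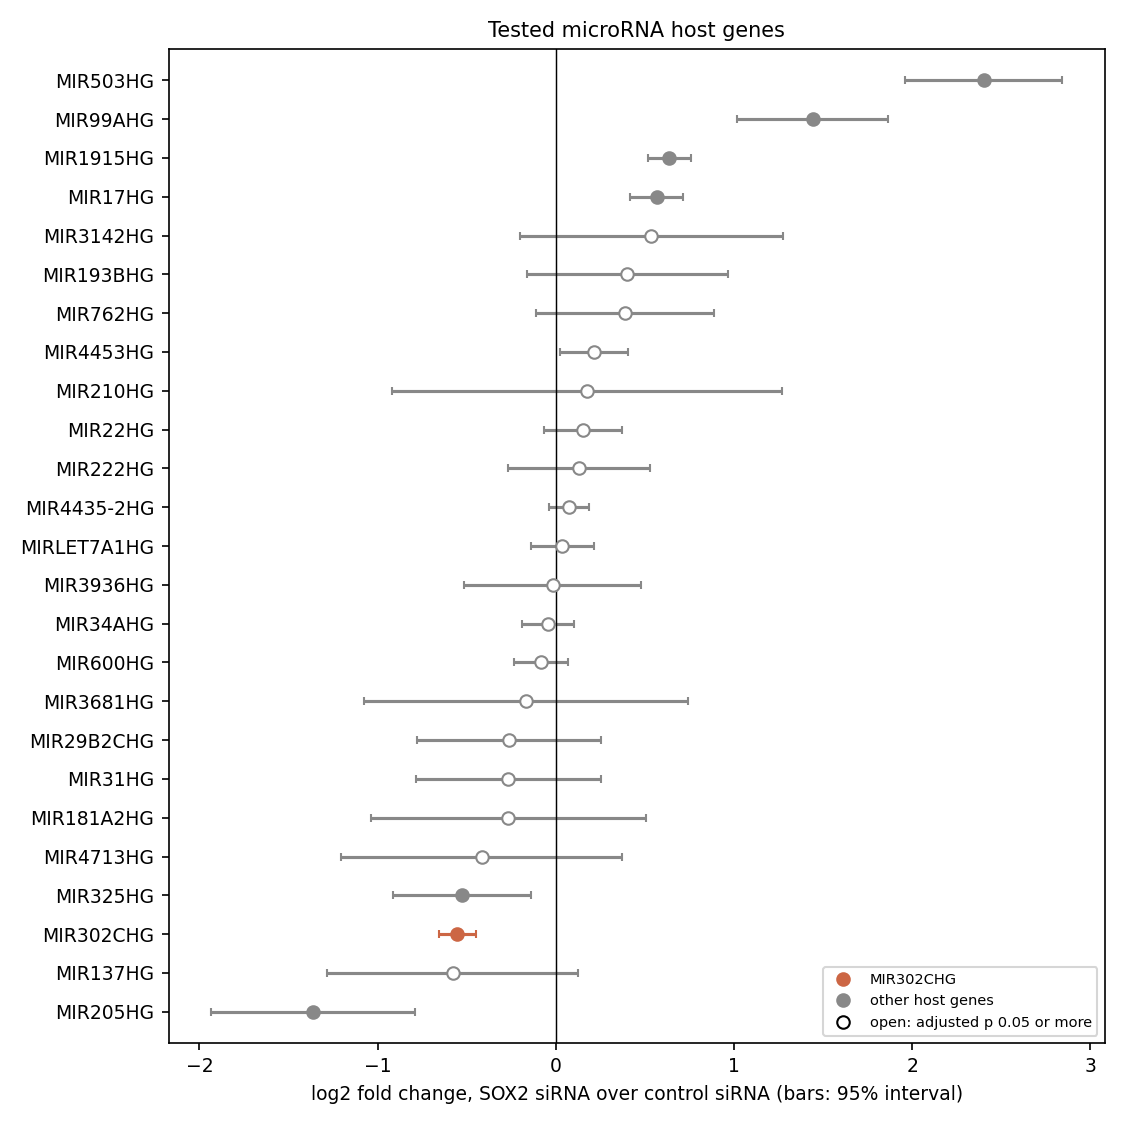
Log2 fold change, SOX2 siRNA over control siRNA, of the 25 tested microRNA host genes with 95% intervals; filled points have an edgeR adjusted p under 0.05. MIR302CHG at -0.55 is among 3 hosts called lower, and 4 hosts are called higher.

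Genes reported as targets of the miR-302 family mostly had higher levels after SOX2 siRNA. Of 21 listed genes, 20 were tested, 14 rose, 2 fell and 4 did not pass the test, a share of 80% called. Over all tested genes 28.2% were called and 14.8% were called higher, and the median log2 fold change was 0.227 for the list against -0.00085. The list was chosen with earlier results of these data known, so its shares describe it and are no independent test. All tested genes also include the long non-coding genes, of which 13.8% were called. CDKN1A, the p21 inhibitor of cyclin-dependent kinases, had 13.8, 13.97 and 14.5 CPM in control and 24.6, 22.1 and 27.6 CPM in SOX2 siRNA libraries (log2 fold change 0.81, SE 0.0774; edgeR adjusted p = 4.74e-07). CDK2, a kinase of the G1 to S step, rose from 52.2 ± 0.903 to 69.6 ± 0.814 CPM, and AKT1, a kinase of growth signalling, from 78.2 ± 4.5 to 101.9 ± 1.44 CPM (n = 3, SD; edgeR adjusted p = 6.01e-07 and 3.59e-06). LEFTY2, a secreted Nodal antagonist, had 8, 4 and 7 counts in control and 27, 25 and 37 in SOX2 siRNA libraries (log2 fold change 2.13, SE 0.339; edgeR adjusted p = 1.27e-04). Its near-identical neighbour LEFTY1 had at most 7 counts and was not tested, so the split of reads between them is uncertain. NR2F2, a nuclear receptor of differentiating cells, rose from 2.91 ± 0.29 to 4.79 ± 0.414 CPM (n = 3, SD; edgeR adjusted p = 7.1e-04). The 2 that fell were SLAIN1, with a log2 fold change of -0.83 (SE 0.0853; edgeR adjusted p = 8.57e-07), and CCND1, encoding cyclin D1, with -0.23 (SE 0.0423; edgeR adjusted p = 6.54e-04). RBL2, KDM1B and TOB2 were called with 0.17 to 0.22 and lost the call under 3 to 5 of 13 alternatives, with adjusted p up to 0.126. CDK2, CDKN1A, AKT1, CCND1 and DAZAP2 share exonic bases with an antisense neighbour, and RHOC and LEFTY2 with a gene in the same orientation, so their counts are uncertain to that extent.

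The 3′ UTR of each gene, the longest in GENCODE 29, was searched on the transcript strand for AGCACTT, the 7 bases that pair with the miR-302 seed. Sites of 4 called targets are printed to show the match, with the site in capitals and the strand and GRCh38 position of each window.
LEFTY2, minus strand, chr1:225937257-225937278: ccatcctaAGCACTTacgtgag
AKT1, minus strand, chr14:104769560-104769581: tccacggtAGCACTTgaccttt
DAZAP2, plus strand, chr12:51242496-51242517: ataccttcAGCACTTctcacaa
CCND1, plus strand, chr11:69652287-69652308: catttccaAGCACTTtcagtcc
The LEFTY2 site is followed by A, which makes the 8-base form AGCACTTA. CCND1 carries the same 7 bases and fell, while LEFTY2, AKT1 and DAZAP2 (log2 fold change 0.34, SE 0.0483; edgeR adjusted p = 3.64e-05) rose. Of the 20 tested targets, 13 had a site, of which 9 rose and 1 fell, with a median log2 fold change of 0.216. The 7 without a site had 5 higher and 1 lower, with a median of 0.28. They lack AGCACTT, and other forms of seed match were not searched. Across all tested genes with a 3′ UTR, 3305 had at least 1 site and 9952 had none, with medians of 9.26e-05 and 0.0167. Of those with a site 18.9% were called higher and 18.3% lower, and of those without 17.9% and 14%, so genes with a site were called more often in both directions. The 521 genes with the 8-base form had a median of 0.00861 against 0.0132 for the rest. Of them 25% were called higher and 16.5% lower, against 17.9% and 15% of the rest, with a median 3′ UTR of 3472 against 1331 bases. Presence of a site and the length of the UTR moved together, and the part of length in these shares was not tested.

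**Figure D4:**
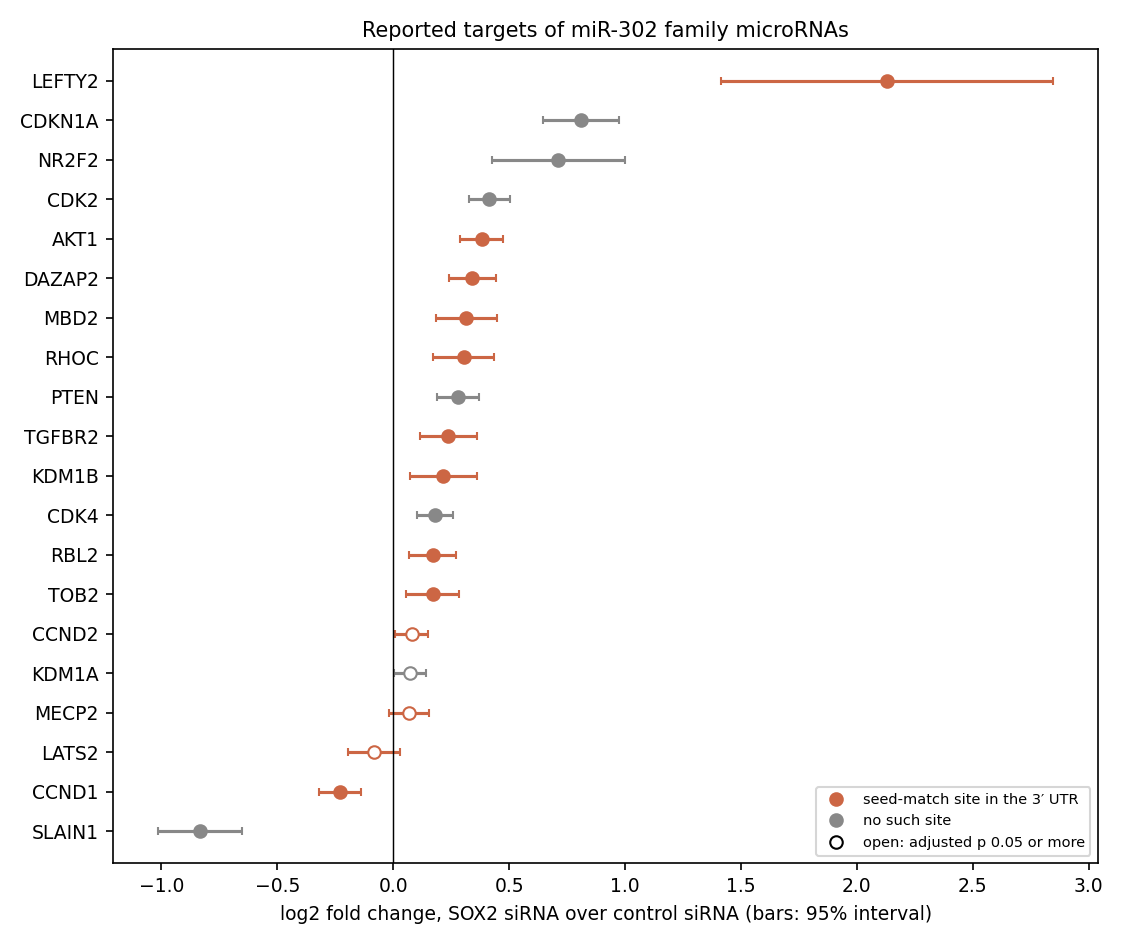
Log2 fold change, SOX2 siRNA over control siRNA, of the 20 tested targets with 95% intervals, coloured by whether the 3′ UTR holds the seed-match site; filled points have an edgeR adjusted p under 0.05. Of the targets, 14 are called higher and 2 lower, and genes with and without a site are found among both.

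Other long non-coding RNAs described in pluripotent cells or their first lineage steps were compared with the set. Of 17 listed, 15 were in the table and 10 were tested, of which 1 rose and 3 fell, a share of 40% against 28.2% of all tested genes and 13.8% of tested long non-coding genes. The median log2 fold change was -0.094 against -0.00085 for all genes. SOX2-OT, whose span holds SOX2, had 165, 152 and 159 counts in control and 88, 68 and 84 in SOX2 siRNA libraries, and DANCR fell from 47.3 ± 2.17 to 37.6 ± 1.75 CPM (n = 3, SD; edgeR adjusted p = 2.51e-05 and 1.07e-04). TUNAR, an RNA of stem cells and neural tissue, was called with -0.47 (edgeR adjusted p = 0.0448), a call lost in 9 of 13 alternatives, the replicate block among them. H19, an imprinted RNA, rose with 1.95 (SE 0.0444; edgeR adjusted p = 2.3e-15). The stem cell RNAs LINC00458, LINC01108, LNCPRESS1 and LNCPRESS2 had at most 4 counts in any library, as did LINC-ROR and LINC00678. LINC00261 varied widely within groups, with 138, 66 and 15 counts in control and 133, 11 and 65 in SOX2 siRNA libraries.

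Protein-coding regulators of pluripotency moved in both directions beside the host. Of 30 listed, 19 were tested, with 6 higher, 5 lower and 8 that did not pass. The share called was 57.9% against 28.2% of all tested genes, and the median log2 fold change -0.171 against -0.00085. PRDM14, a chromatin regulator of germ cells and pluripotent cells, fell from 36.8 ± 1.91 to 8.71 ± 0.333 CPM, and PODXL, a surface sialomucin, from 1316 ± 15 to 671 ± 25.1 CPM (n = 3, SD; edgeR adjusted p = 1.32e-13 and 9.54e-13). LIN28A and LIN28B, which block maturation of let-7 microRNAs, rose with log2 fold changes of 0.70 and 0.59 (edgeR adjusted p = 1.8e-11 and 5.09e-09). The summed level of the 30 regulators ranged from 3059 to 3126 CPM in control and from 3026 to 3086 CPM in SOX2 siRNA libraries. That sum was carried by a few abundant genes that moved in opposite directions, PODXL downward, LIN28A from 706 to 1148 CPM and LIN28B from 239 to 359 CPM, and does not describe the list. Among genes listed as partners of the 4 RNAs from earlier reports, PTBP1, MCM2 and SMAD7 were not called (log2 fold changes of 0.034, 0.085 and -0.12; edgeR adjusted p = 0.571, 0.0997 and 0.231).

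**Figure D5:**
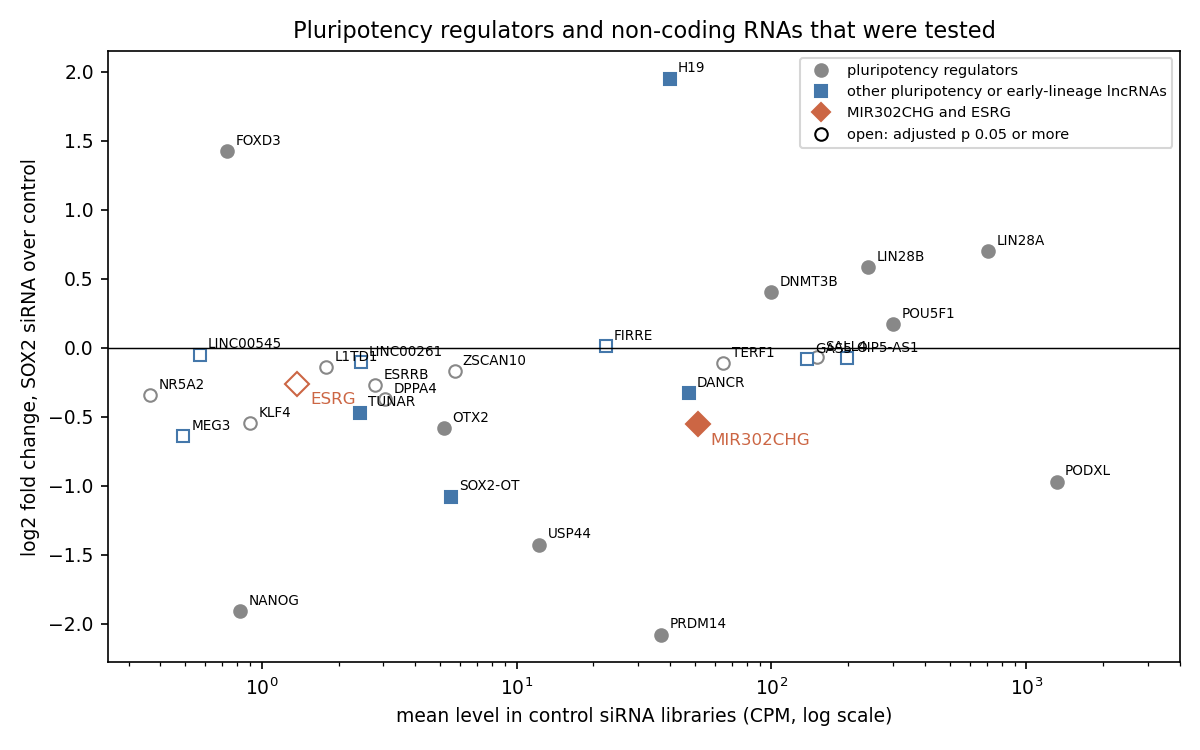
Log2 fold change against the control level in CPM (log scale) for tested pluripotency regulators (1 is not shown), the other listed long non-coding RNAs, MIR302CHG and ESRG; filled points have an edgeR adjusted p under 0.05. MIR302CHG at 51.5 CPM lies among the more abundant transcripts, and ESRG at 1.38 CPM is not called.

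Markers of differentiated lineages were read in the same libraries. Their summed level over 17 genes was 43.5 to 54.3 CPM in control and 77.9 to 85.4 CPM in SOX2 siRNA libraries. The difference lay almost wholly in 3 genes: mean levels were 28.9 and 48.5 CPM for TUBB3, 6.58 and 13.2 CPM for GATA4, and 1.85 and 8.88 CPM for MIXL1. These were the 3 of 8 tested that rose, a share of 37.5% called against 28.2% of all tested genes (14.8% higher), with log2 fold changes of 0.74, 0.9996 and 2.26 (edgeR adjusted p = 8.23e-06, 1.48e-07 and 1.99e-09). The other 5 tested did not pass and lay on both sides of no change. AFP and APOA1 had log2 fold changes of -0.39 and -0.38 (edgeR adjusted p = 0.661 and 0.221). GATA6, GATA3 and PAX6 had 0.26, 0.16 and -0.0175 (edgeR adjusted p = 0.763, 0.547 and 0.941). TBXT, CGA, NEUROD1 and HBB had 0 counts in every library. TUBB3 shares 1584 of its 4430 exonic bases with a coding gene in the same orientation, so its counts are uncertain to that extent. The part of these markers in the level of MIR302CHG was not tested.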

How the data were processed

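PA1 cells were profiled in 6 mRNA libraries, 3 per group; groups and replicate numbers come from the titles. Trizol extraction and the KAPA mRNA HyperPrep kit are named per the labels' protocols. The authors deposited unnormalized counts by gene symbol: whole numbers with unequal totals. Per the submitters' processing notes, bcl2fastq 2.20.0, STAR 2.7.3a, Salmon 0.14.1, DESeq2 1.28.1 and build GRCh38.p13 were used; roles, annotation and strand setting are not given in the sources used here.

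The 4 members and all gene lists were chosen with earlier results of these data known. Genes were filtered with edgeR's filterByExpr (minimum count 10), scaled by TMM and tested with the quasi-likelihood F-test (robust, group only) over 17592 genes, with Benjamini-Hochberg adjustment and a threshold of 0.05. CPM values use the scaled totals. Software was R 4.3.3, edgeR 4.0.16, limma 3.58.1, DESeq2 1.42.0, Python 3.11.15, scipy 1.17.1, numpy 2.4.6, matplotlib 3.10.9 and pandas 2.3.3. Permutation tests were exact and two-sided. The procedure was tested on simulated data. Floors of 3 counts cover counting error only.

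Genes were named by rule: the members, SOX2, the called genes with the 4 smallest p-values per list, neighbours, and the 3 genes most correlated with each tested member. Other listed genes were named after their values were seen, and some listed genes are not reported here by name. Lengths, overlaps and 3′ UTRs of at least 50 bases come from GENCODE 29, and mature microRNAs and promoters from RefSeq (GRCh38.p14). Promoters matched for 1 of the 4 members, MIR302CHG. Replicate pairs differed by more than counting noise, with chi-square over its degrees of freedom at 2.87 to 6.43.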

Additional observations from a re-analysis of the deposited data

How the results depend on the processing

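Alternatives were limma-voom, the Wald test of DESeq2, its size factors, upper-quartile scaling, the replicate number as a block, a looser filter (1 count in all) and a stricter one (10 counts in each library), and each replicate left out in turn. Under all 13, MIR302CHG kept its call, with log2 fold changes of -0.58 to -0.51 (adjusted p up to 1.37e-05), and ESRG stayed uncalled at -0.36 to -0.18 (adjusted p 0.317 to 0.671). SOX2 ranged from -2.32 to -2.25, and the number of called genes from 3760 to 5212. Calls among partner genes, 1 in the fit as reported, ranged from 1 to 2 with 1 replicate left out. Upper-quartile scaling took the higher calls from 52.4% to 45.8% of all calls, and the median log2 fold change to -0.0211; the 10-count filter in every library left 16039 genes. LINC-ROR and LINC00678 gave a fitted value only without the filter. Of 46 called genes among those listed, 39 kept the call under every alternative that tested them, 7 lost it under at least 1 and none reversed. The cause was not tested.

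With the replicate block MIR302CHG had -0.55 (adjusted p = 5.2e-07), ESRG -0.26 (adjusted p = 0.435) and SOX2 -2.28; 5177 genes were called. Deviations from the group means correlated at 0.0868, -0.0377 and -0.0311 between same-numbered libraries, and at -0.12 to 0.155 between differently numbered ones. These values, taken over all tested genes alike, cannot settle whether same-numbered libraries shared a culture or batch. Low counts limit what can be said of ESRG, LINC-ROR and LINC00678.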
